A study of Mus musculus with 2 samples.

Results

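The genes described here are immediate early genes that do not encode AP-1 subunits, and they comprised 10 genes of the 32285 in the tables, namely *Ier2*, *Ier3*, *Ier5*, *Egr1*, *Egr2*, *Dusp1*, *Zfp36*, *Nr4a1*, *Klf2* and *Btg2*. They were named as a list and looked up by symbol, and all 10 were found in both libraries at 10 CPM or more (CPM, UMIs of a gene per 1000000 UMIs, where a unique molecular identifier, UMI, marks 1 captured mRNA). The study sorted alveolar macrophages (AMs), the resident macrophages of the air spaces, from lungs of C57BL/6 mice at postnatal week 10 and sequenced them as single cells, to characterize AMs in lungs that bear a tumor. The control library came from vehicle-control mice and the tumor library from mice with lung cancer cells implanted into the left lung. Both kinds of lung were minced and digested with collagenase and dispase before sorting, and the 2 groups of mice were bred separately. The number of mice behind each library is not given in the sources used here. Each table was taken as 1 condition by its label. The study's methods also describe assigning barcodes to samples by hashtag reads, which were not used here, so whether a table holds barcodes of another sample was not tested, and every ratio of tumor over control rests on the labels.

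Immediate early genes are transcribed within minutes of a signal without new protein synthesis, mostly through factors that are already present in the resting cell, such as SRF with its ternary complex partners, CREB, MEF2 and NF-κB. Many of their products are transcription factors, and others end the response by removing phosphates from MAP kinases or by hastening the decay of cytokine mRNAs. In macrophages they follow microbial products, cytokines, adhesion and shear, and in tissue digested to single cells they are often found together with heat shock genes.

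Cells comprised 6185 of 8485 deposited barcodes in control and 7666 of 9175 in tumor after barcodes with fewer than 500 genes or more than 10% mitochondrial UMIs were left out. The kept cells held 64850143 UMIs in control and 68801889 in tumor, with medians of 10370 and 8264 UMIs per cell. All 12 AM markers checked were at 10 CPM or more in both libraries, and 17 kept barcodes occurred in both libraries. With 1 library per condition, no test of a difference between conditions was possible. All intervals are exact at 95% and cover counting error only, and a ratio of 1.5-fold served as the threshold of size.

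Of the 10 genes, 6 were at least 1.5-fold higher in tumor AMs than in control AMs and 0 were at least 1.5-fold lower. Over all 7699 genes that reached 10 CPM in one library, 5.57% were higher by that size and 4.05% were lower. Set as tumor over control, the log2 ratio had a median of 0.68 over the 10 genes and -0.03 over all genes tested. Their summed level was 2114 CPM in control and 3372 CPM in tumor.

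**Figure D1:**
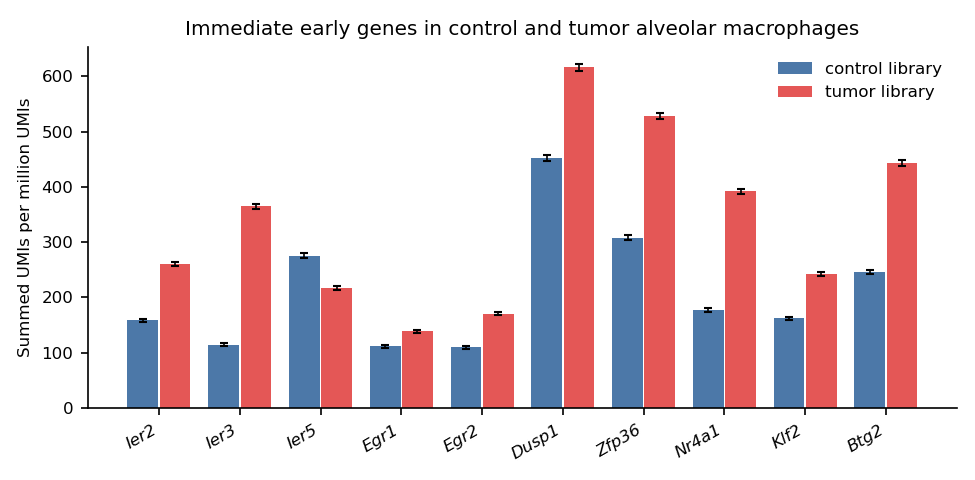
The bars give CPM in the control and tumor libraries, with exact 95% counting intervals, on a linear axis from 0. Of the 10 genes, *Ier5* has the higher bar in control, at 275 against 217 CPM, and *Ier3* has the widest gap, at 114 against 365 CPM.

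Among the transcription factors, *Nr4a1*, which encodes the orphan nuclear receptor Nur77, had 177 CPM in control and 392 CPM in tumor. The tumor level was thus higher by 1.15 on the log2 scale (interval 1.12 to 1.18). *Egr2*, a zinc finger factor of differentiated macrophages, had 109 CPM in control and 170.4 CPM in tumor, a log2 ratio of 0.64 (0.60 to 0.68). *Klf2*, a Krüppel-like factor that restrains inflammatory activation of myeloid cells, had 162 CPM in control and 242 CPM in tumor. Its ratio of 1.49-fold lay just under the threshold. *Egr1*, the serum-responsive zinc finger factor, had 111 CPM in control and 138 CPM in tumor, a log2 ratio of 0.32 (0.27 to 0.36).

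Among the genes whose products shut a response down, *Zfp36*, which encodes the mRNA decay factor tristetraprolin, had 308 CPM in control and 529 CPM in tumor. The log2 ratio was 0.78 (0.75 to 0.80). *Btg2*, an antiproliferative gene whose product recruits deadenylases, had 246 CPM in control and 443 CPM in tumor, a log2 ratio of 0.85 (0.82 to 0.88). *Dusp1*, the nuclear MAP kinase phosphatase, had 452 CPM in control and 616 CPM in tumor, a log2 ratio of 0.45 (0.42 to 0.47) that was under the threshold.

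Of the genes named for the immediate early response, *Ier2* and *Ier5* are relatives and *Ier3* is not, and they went in different directions. *Ier3*, whose product affects survival and ERK signalling, had 114 CPM in control and 365 CPM in tumor. The log2 ratio of 1.68 (1.64 to 1.72) was the largest of the 10 genes. *Ier2*, a nuclear protein gene, had 158 CPM in control and 260.1 CPM in tumor, a log2 ratio of 0.72 (0.68 to 0.75). *Ier5*, whose product has been linked to the heat shock factor HSF1, had 275 CPM in control and 217 CPM in tumor, so that tumor was lower by 1.27-fold.

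The other immediate early genes, a list of 33 that includes the AP-1 subunits, gave 12 genes at least 1.5-fold higher in tumor, 0 lower and 16 between, of 28 tested, with a median log2 ratio of 0.40. Those with the largest ratios among genes of at least 10 CPM in one library were *Socs3*, an inhibitor of cytokine signalling, at 8.57 CPM in control and 38.9 CPM in tumor, *Gadd45b*, a stress response gene, at 88.3 and 243 CPM, and the *Nr4a1* relative *Nr4a2* at 42.3 and 109 CPM. Those with the smallest ratios were *Zfp36l2*, a relative of *Zfp36*, at 675 CPM in control and 583 CPM in tumor, *Ccnl1*, a cyclin of splicing, at 302 and 275 CPM, and the ERK phosphatase gene *Dusp5* at 318 and 310.0 CPM.

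Genes of the heat shock and NF-κB responses also differed between the libraries. The 14 NF-κB response genes had a median log2 ratio of 0.91, and 8 of them were at least 1.5-fold higher in tumor. The 12 heat-inducible chaperone genes had a median of 0.21 over the 11 tested, of which 4 were higher in tumor by that size, whereas 0 of 12 constitutive chaperone genes were. *Hspa1a* and *Hspa1b*, the inducible HSP70 genes with near-identical coding sequences, had 111 and 106 CPM in control and 260.3 and 311 CPM in tumor. Marker genes of monocytes and interstitial macrophages, a list of 7 that includes *Apoe*, summed to 41.3 CPM in control and 690.1 CPM in tumor. Fibroblast markers summed to 0.77 and 32.4 CPM and neutrophil markers to 114 and 150 CPM, in control and tumor. Lower in tumor were the summed markers of T cells (201 and 115 CPM), epithelium (87.0 and 23.2 CPM) and AMs (20490 and 17805 CPM). Of the 6 T cell markers, 1 reached 10 CPM in each library, so the T cell sums rested mainly on 1 gene. The part of these markers in the differences between the libraries was not tested.

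The spread of each gene over cells was compared after thinning every cell to 3800 UMIs, which left out 595 control and 729 tumor cells that were shallower. Some of the genes sat in few cells. The 10% of control cells with most *Egr1* held 76.9% of its UMIs, whereas that share was 53.2% for *Egr2*, a gene with nearly the same number of UMIs in control. In tumor, the 10% of cells with most *Egr1* held 75.4% and that for *Egr2* 45.3%. *Klf2* and *Ier2*, another pair at nearly equal UMI numbers in control, gave 58.7% for *Klf2* and 45.0% for *Ier2*.

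Which of the genes were high in the same cells as heat shock genes was asked by ranking the cells of each library by the summed share of 12 heat-inducible chaperone genes (*Hspa1a*, *Hspa1b*, *Hsph1*, *Dnajb1*, *Hsp90aa1*, *Hspb1*, *Bag3*, *Dnajb4*, *Dnaja1*, *Chordc1*, *Cacybp* and *Hspa4l*) within 20 strata of cells of like depth. The top decile was set against the lower 5 deciles. None of the 10 genes is on that list. In both libraries, 6 of the 10 genes were at least 1.5-fold higher in the top decile, namely *Klf2*, *Egr1*, *Btg2*, *Ier2*, *Dusp1* and *Egr2*, where 0.741% of all 7153 genes met that rule. *Nr4a1*, *Zfp36*, *Ier5* and *Ier3* did not.

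*Klf2* had 103 CPM in the lower 5 deciles and 537 CPM in the top decile of control cells, and 114 and 902 CPM in tumor cells. The log2 ratios were 2.38 (2.31 to 2.45) in control and 2.99 (2.93 to 3.05) in tumor. *Egr1* had 73.1 CPM in the lower and 352 CPM in the top cells of control, and 61.1 and 549 CPM in tumor, log2 ratios of 2.27 (2.18 to 2.35) and 3.17 (3.09 to 3.25). When all genes tested were ranked by the lower of their 2 ratios, 99.99% were below *Klf2* and 99.96% below *Egr1*. Along the deciles, *Klf2* in control stayed between 91.9 and 144 CPM through decile 8, was 192 CPM in decile 9 and 537 CPM in decile 10. The course was more gradual in tumor, with *Klf2* at 210.1 CPM in decile 8, 435 CPM in decile 9 and 902 CPM in decile 10.

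*Btg2* came next, with 203 CPM in the lower and 541 CPM in the top cells of control, and 361 and 840.5 CPM in tumor. Its log2 ratios were 1.42 in control and 1.22 in tumor. *Ier2* had 135 and 283 CPM in the lower and top cells of control, and 217 and 511 CPM in tumor, log2 ratios of 1.06 and 1.23. *Dusp1* had 412 and 668 CPM in control, and 518 and 1006 CPM in tumor, log2 ratios of 0.70 and 0.96. *Egr2* passed narrowly, with 98.8 and 175 CPM in control and 159 and 244 CPM in tumor, the latter a log2 ratio of 0.61 (0.53 to 0.69). *Egr2* and *Dusp1* did not meet the rule when *Hspa1a* and *Hspa1b* were left out of the list (0.54 for *Egr2* in tumor, 0.46 for *Dusp1* in control), and with constitutive chaperones *Ier2* did not either, at 0.49 in control, where *Dusp1* had 0.04.

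The 4 genes that did not meet the rule were of 3 kinds. *Zfp36* and *Nr4a1* were higher in the top decile of both libraries by less than 1.5-fold, with log2 ratios of 0.49 and 0.51 for *Zfp36* and of 0.55 and 0.48 for *Nr4a1*, in control and tumor. With the top 5% of cells in place of the top decile *Zfp36* met the rule, at 0.69 and 0.64. *Ier5* was nearly flat in control, at 268 CPM in the lower and 285 CPM in the top cells, whereas in tumor it had 192 CPM in the lower and 339 CPM in the top cells. The top decile was the place where the 2 libraries crossed for *Ier5*, since control was above tumor in each of the other 9 deciles. *Ier3* had 120.0 CPM in the lower and 136 CPM in the top cells of control, and 390 and 297 CPM in tumor, so that its ratio was above 1 in control and below 1 in tumor.

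**Figure D2:**
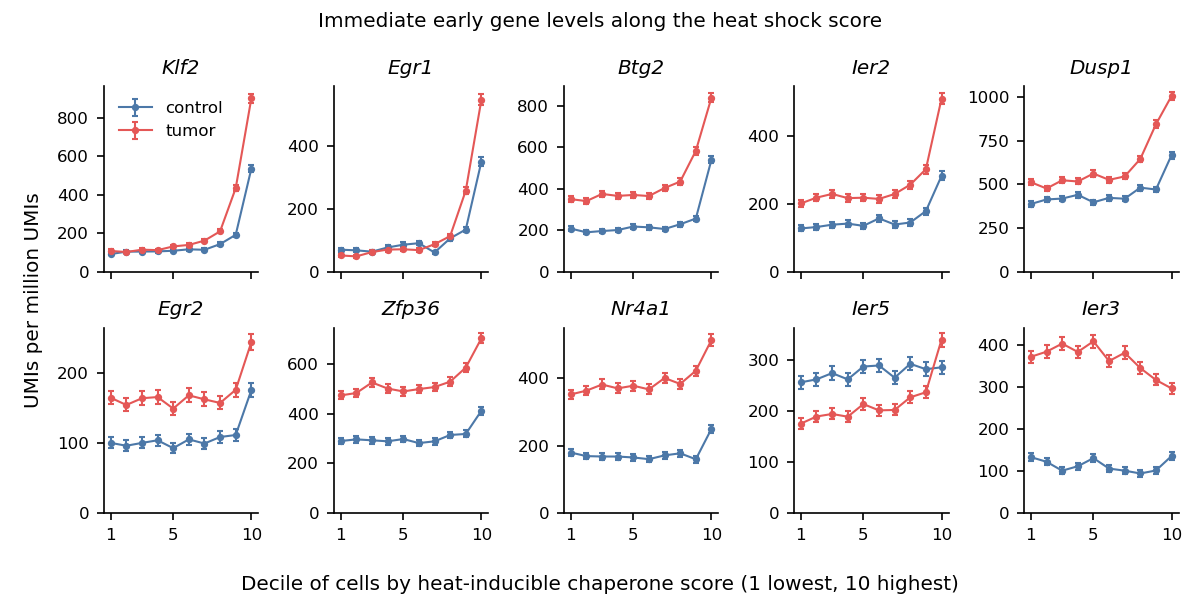
Each panel gives 1 gene in CPM (linear axis from 0) against the decile of cells by heat-inducible chaperone score, from 1 (lowest) to 10 (highest), for the control and tumor libraries, with exact 95% counting intervals, ordered by the lower of the 2 ratios. *Klf2* and *Egr1* climb steeply in the last deciles, to 902 and 549 CPM in tumor, while *Ier3* in tumor ends at its lowest value, 297 CPM.

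Cells in the top decile had the same depth as the others by construction, with medians of 10368 UMIs in control and 8266 in tumor. Their median mitochondrial share was 2.59% in control and 2.12% in tumor, against 2.78% and 2.70% in the first decile. The median summed level of AM markers was 20073 CPM in the top and 19671 CPM in the lower cells of control, and 19539 and 17843 CPM in tumor, while markers of B cells, NK cells, fibroblasts, endothelium, epithelium and dendritic cells had a median of 0 in all 4 sets of cells. Near the limit of the top decile, 285 control and 184 tumor cells had a score within 10% of it. Between the lower and the top cells, the median of T cell markers was 163 and 176 CPM in control and 0 and 104 CPM in tumor, and that of neutrophil markers was 62.5 and 52.4 CPM in control and 101 and 50.6 CPM in tumor. That of monocyte and interstitial macrophage markers was 0 in both sets of control cells, and 68.2 and 0 CPM in tumor. The T cell list had 1 of 6 genes at 10 CPM or more in each library, so its medians need not reflect T cells. The part of all these markers in the ratios was not tested.

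Of the other immediate early genes, 9 of 26 tested met the same rule. They included the AP-1 gene *Jun*, with log2 ratios of 2.38 in control and 3.33 in tumor, and the small GTPase gene *Rhob*, with 1.75 and 1.88. *Junb* had 0.17 and 0.21, and *Fosb* 0.38 and 0.23, so that AP-1 genes too differed among themselves. Within single clusters of cells (defined below), the rule was applied in the 20 pairs of cluster and library with at least 200 cells. *Klf2* was at least 1.5-fold higher in the top decile in 20 of the 20 pairs, *Egr1* in 19, *Btg2* in 18, *Dusp1* in 16 and *Ier2* in 15. For *Egr2*, *Zfp36* and *Nr4a1* the number was 10 each, and for *Ier3* and *Ier5* it was 6 each. The median log2 ratio over the pairs was 2.35 for *Klf2* and 2.68 for *Egr1*, and 0.14 for *Ier3*.

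Since several of the genes moved together along this score, the bases before their starts are given for 3 of them (*Klf2*, *Btg2* and *Dusp1*) beside *Ier3* and *Zfp36*, which did not meet the rule with the top decile. Windows of 300 bases, 250 before and 50 after a RefSeq start in GRCm38.p6, were at hand for 8 of the 10 genes, all but *Ier2* and *Egr1*. Both strands were searched for a cAMP response element (TGACGTCA), a heat shock element (GAANNTTCNNGAA or TTCNNGAANNTTC), an AP-1 site (TGANTCA), and a CArG box, a κB site and a MEF2 site by their usual patterns. The cAMP response element and the AP-1 site read the same on both strands, and among these genes no match of one motif overlapped one of another. Each line holds the 200 bases up to the start, 5′ to 3′ on the gene's strand, with the matched letters in capitals. They lie at chr8:72318862-72319061 (plus strand) for *Klf2*, chr1:134079156-134079355 (minus) for *Btg2*, chr17:26508473-26508672 (minus) for *Dusp1*, chr17:35821513-35821712 (plus) for *Ier3* and chr7:28379229-28379428 (minus) for *Zfp36*.
Klf2: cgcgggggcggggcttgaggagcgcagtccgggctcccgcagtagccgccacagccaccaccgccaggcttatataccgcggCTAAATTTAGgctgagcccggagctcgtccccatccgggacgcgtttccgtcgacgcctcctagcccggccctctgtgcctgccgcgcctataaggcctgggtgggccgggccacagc
Btg2: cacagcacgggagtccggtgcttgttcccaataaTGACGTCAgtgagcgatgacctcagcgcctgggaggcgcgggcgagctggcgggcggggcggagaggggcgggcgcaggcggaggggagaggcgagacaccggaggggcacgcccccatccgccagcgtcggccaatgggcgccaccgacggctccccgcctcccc
Dusp1: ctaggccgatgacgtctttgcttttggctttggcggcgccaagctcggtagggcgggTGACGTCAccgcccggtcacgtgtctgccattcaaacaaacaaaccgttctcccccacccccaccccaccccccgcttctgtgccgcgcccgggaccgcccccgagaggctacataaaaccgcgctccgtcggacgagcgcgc
Ier3: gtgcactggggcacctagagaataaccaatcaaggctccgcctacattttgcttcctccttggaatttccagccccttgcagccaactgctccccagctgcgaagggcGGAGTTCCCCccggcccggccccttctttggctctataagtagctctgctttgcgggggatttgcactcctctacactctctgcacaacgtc
Zfp36: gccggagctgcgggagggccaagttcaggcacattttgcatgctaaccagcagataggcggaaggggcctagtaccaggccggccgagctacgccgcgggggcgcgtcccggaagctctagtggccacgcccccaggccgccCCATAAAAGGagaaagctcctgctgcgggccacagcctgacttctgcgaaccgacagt

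The capitals mark a MEF2 site in *Klf2*, a cAMP response element in *Btg2* and in *Dusp1*, a κB site in *Ier3* and a CArG box, the SRF motif, in *Zfp36*. A CArG box was also in windows of *Egr2*, and κB letters were in windows of *Egr2* and *Nr4a1*. *Egr2*, which is not printed, met the heat shock rule, so neither motif was confined to genes that did not meet it. It had 5 windows, and each other gene with a window had 1. Over all 32851 windows, the cAMP response element was in 1.79%, the CArG box in 1.63%, the κB site in 8.46% and the MEF2 site in 0.557%. Counted by gene, these shares were 2.03%, 1.81%, 9.55% and 0.636%. Heat shock element letters were in 0.603% of all windows and in 0 of the 8 genes' windows, and the AP-1 letters were in 7.81% and likewise in 0 of the 8. The matches are letters in these windows, and binding was not measured.

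The same ranking was repeated with 14 NF-κB response genes (*Nfkbia*, *Nfkbiz*, *Nfkbie*, *Tnfaip3*, *Tnf*, *Il1b*, *Cxcl1*, *Cxcl2*, *Ccl3*, *Ccl4*, *Icam1*, *Relb*, *Birc3* and *Cd83*), which mark inflammatory activation and include none of the 10 genes. Again 6 of the 10 were at least 1.5-fold higher in the top decile of both libraries, where 1.09% of all 7149 genes were, but the members differed. *Ier3*, *Egr1*, *Zfp36*, *Ier2*, *Egr2* and *Nr4a1* met the rule, and *Btg2*, *Dusp1*, *Klf2* and *Ier5* did not. Of the other immediate early genes, 4 of 26 met it. Between the lower and the top cells by this score, the median of neutrophil markers was 0 and 63.3 CPM in control and 92.5 and 94.1 CPM in tumor. That of T cell markers was 164 and 144 CPM in control and 77.2 and 0 CPM in tumor, and that of monocyte and interstitial macrophage markers was 0 in both sets of control cells, and 0 and 73.8 CPM in tumor. The AM markers had 18942 and 19794 CPM in control and 18512 and 17969 CPM in tumor, and 238 control and 374 tumor cells had a score within 10% of the limit. As before, 1 of the 6 T cell markers reached 10 CPM in each library. The part of the cell type markers was not tested.

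*Ier3* had 83.7 CPM in the lower and 235 CPM in the top cells of control, and 265 and 659.7 CPM in tumor. Its log2 ratios were 1.49 (1.40 to 1.58) in control and 1.32 (1.26 to 1.37) in tumor. *Zfp36* had 261 and 456 CPM in control and 412 and 834 CPM in tumor, log2 ratios of 0.81 and 1.02. *Egr1* was high by this score too, with 72.9 and 216 CPM in control and 120.0 and 229.9 CPM in tumor. *Klf2*, by contrast, had log2 ratios of 0.50 in control and 0.02 (-0.06 to 0.09) in tumor, and *Ier5* had a ratio of 0.14 in control and 214 CPM in both sets of tumor cells. The *Klf2* values rested on *Il1b* and *Cxcl2* in the score, since without these 2 genes *Klf2* met the rule, at 0.83 in control and 0.70 in tumor, while *Nr4a1* no longer did, at 0.51 in tumor.

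**Figure D3:**
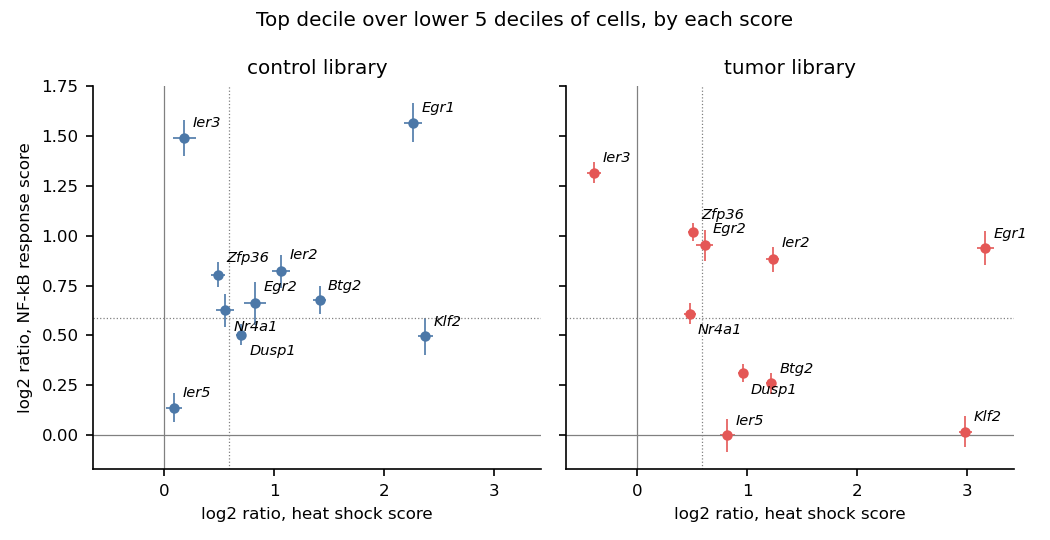
Each point is 1 gene, with its log2 ratio of the top decile over the lower 5 deciles of cells by heat shock score (x axis) and by NF-κB response score (y axis), bars for exact 95% counting intervals, solid lines at 0 and dotted lines at 1.5-fold. In both libraries *Ier3* lies at the upper left, at 0.18 and 1.49 in control, and *Klf2* at the lower right, at 2.38 and 0.50 in control.

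Cells high in one score and low in the other, by the full lists, separated the genes further. In tumor, 402 cells were in the top decile by heat shock genes and the lower 5 deciles by NF-κB genes, 428 cells were the reverse, 57 were in the top decile of both and 1834 in the lower 5 deciles of both. *Klf2* had 871 CPM (841 to 902) in cells high in heat shock genes alone, 109 CPM (98.8 to 120) in those high in NF-κB genes alone and 99.9 CPM in those low in both. *Ier3* had the opposite pattern, with 275 CPM (258 to 293) in cells high in heat shock genes alone, 730.2 CPM (703 to 758) in those high in NF-κB genes alone and 265 CPM in those low in both. *Egr1* had 519, 172 and 40.0 CPM in these 3 sets of tumor cells. In cells high in both scores *Ier3* had 269 CPM (223 to 321), close to its level in cells low in both.

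In the control library these sets held 250, 311, 60 and 1571 cells. There *Klf2* had 488, 138 and 85.4 CPM in cells high in heat shock genes alone, in NF-κB genes alone and low in both, and *Ier3* had 112, 267 and 84.0 CPM. In control cells high in both scores *Ier3* had 215 CPM (180 to 255), above its levels in cells high in heat shock genes alone and in cells low in both, unlike in tumor. *Nr4a1* differed less among these sets than *Klf2* and *Ier3*, with 476, 496 and 309 CPM in tumor and 609 CPM in tumor cells high in both. *Zfp36* in tumor had 589, 773 and 373 CPM, and 1003 CPM in cells high in both.

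The difference between the libraries was then taken at equal scores, as alternatives chosen after seeing the data. Equal here means that cells of both libraries were put into common bins of score, without depth strata. The highest bin had no upper limit, and by heat shock score it held 369 control and 1076 tumor cells. Whether scores differed between the libraries within a bin was not tested. Over 10 bins of equal heat shock score, *Egr1* had 125 CPM in control and 124 CPM in tumor, a log2 ratio of -0.02, where all cells gave 0.32. That average joined bins of opposite sign, from -0.43 (-0.63 to -0.23) in bin 2 to 0.17 (0.09 to 0.25) in bin 10, the highest scores. At equal NF-κB score *Egr1* averaged 129 CPM in control and 131 CPM in tumor, over bins that ran from 0.76 (0.56 to 0.96) in bin 1 to -0.45 (-0.57 to -0.34) in bin 10. At equal cluster shares its ratio was 0.59. By heat shock score *Klf2* had a ratio of 0.24, where all cells gave 0.58. *Ier3* had 1.65 on average against 1.68, with 1.63 to 1.88 in bins 1 to 9 but 0.86 (0.73 to 0.99) in bin 10. *Nr4a1* had 1.09 against 1.15. *Egr2* came below 1.5-fold at 0.56, over bins that ran from 0.76 (0.62 to 0.89) in bin 6 to 0.20 (0.08 to 0.32) in bin 10. Over 10 bins of equal NF-κB score the ratio was 1.31 for *Ier3* and 0.98 for *Nr4a1*, and *Ier2*, *Egr2* and *Zfp36* came below 1.5-fold at 0.51, 0.44 and 0.54. *Btg2* had 0.71 by the first score and 0.73 by the second. Its bins ran from 0.96 in bin 4 to 0.40 (0.33 to 0.47) in bin 10 by heat shock score. By NF-κB score they ran from 1.08 in bin 3 to 0.43 (0.33 to 0.52) in bin 10.

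**Figure D4:**
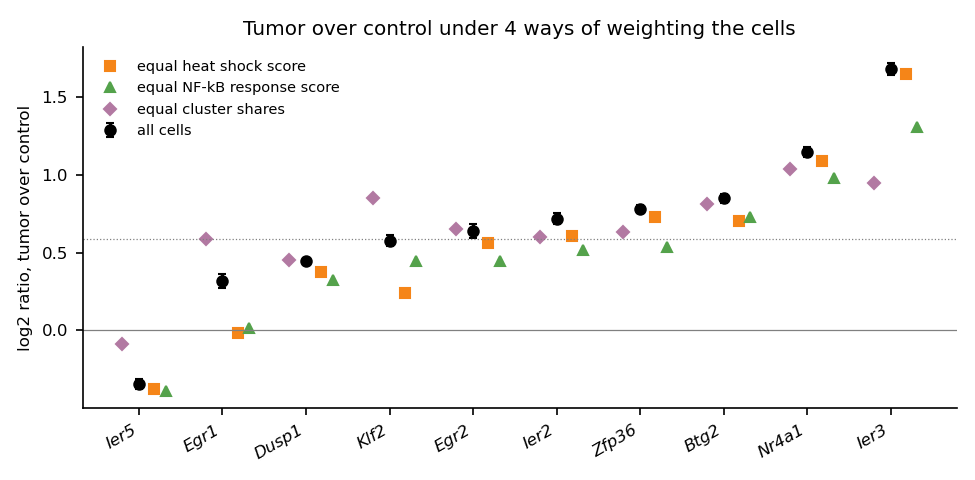
For each gene, ordered by its ratio over all cells, the log2 ratio of tumor over control is given for all cells (circles, with exact 95% counting intervals), at equal heat shock score (squares), at equal NF-κB response score (triangles) and at equal cluster shares (diamonds), with a solid line at 0 and a dotted line at 1.5-fold. Equal score means common bins of score, of which the highest has no upper limit. *Egr1* is at -0.02 at equal heat shock score, 0.02 at equal NF-κB score (both averages over bins of opposite sign) and 0.59 at equal cluster shares, and *Ier3* is at 1.65, 1.31 and 0.95.

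To describe the genes across cell states, the cells were clustered on 2000 variable genes that excluded the 10 genes, the other immediate early genes and the chaperone genes. The 14 clusters of at least 50 cells are lettered by size and are given with their leading genes. Cluster A led with *Acaa1b*, *Abca1*, *Cpne5*, *Htr2c* and *Cidec*, B with *F13a1*, *Vegfa*, *Apoe*, *Hpse* and *Adam8*, C with *Hspa1b*, *Hspa1a*, *Wfdc10*, *Ear1* and *Jun*, and D with *Fstl1*, *Mmp12*, *Mfge8*, *Mamdc2* and *Colec12*. Chemokine and cytokine genes led F (*Cxcl3*, *Ereg*, *Cxcl1*, *Cxcl2*, *Il1a*), DNA replication genes G (*Uhrf1*, *Hells*, *Mcm5*, *Lig1*, *Mcm2*), class II antigen genes H (*Cxcl9*, *H2-Eb1*, *H2-Aa*, *H2-Ab1*, *Cd74*), genes that include iron transporters J (*Slc40a1*, *Slc11a1*, *Akr1b8*, *Pla2g7*, *Treml4*), mitotic genes K (*Cenpf*, *Ube2c*, *Pimreg*, *Mxd3*, *Hist1h1b*) and interferon-induced genes M (*Ifit1bl1*, *Ifit3*, *Ifit1*, *Ifit2*, *Rsad2*). Cluster L led with *Ubash3a*, *Rccd1*, *Plekhg2*, *Fbxl18* and *Haus6*. Clusters E (*Gm26917*, *Neat1*, *Lncpint*, *Malat1*, *Kcnq1ot1*) and I (*Ccl4*, *Lypla2*, *Foxj2*, *Snhg8*, *Siglece*) had low depth, with medians of 3224.5 and 3133 UMIs, and N, of 56 cells, held other cell types (*S100a9*, *Igkc*, *Ly6d*, *Ighm*, *Gzma*). Cluster B held 106 control and 2472 tumor cells.

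Among the clusters of at least 50 cells, C had the highest summed level of heat-inducible chaperone genes. Summed over both libraries, 0 of the 10 genes had their highest level in C, where 2.85% of all 7153 genes did. That number depended on the clustering. It was 1 gene, *Klf2*, when clusters of other cell types were left out, an alternative chosen after seeing the data, and between 0 and 8 under other settings. Since B was nearly all tumor cells, levels are given by library below, over the 12 clusters with at least 50 cells in each library.

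*Ier3* followed cluster B. It had 330.1 CPM there in control and 576 CPM in tumor, its highest level in each library, and its lowest levels were 69.4 CPM in cluster H of control and 164 CPM in cluster C of tumor. Cluster B was where *Ier5* was lowest, at 186 CPM in control and 131 CPM in tumor, and *Ier5* was highest in A in both libraries, at 328 and 367 CPM. *Klf2* and *Btg2* were highest in the chaperone-rich cluster C in both libraries. For *Klf2* the levels in C were 228 CPM in control and 517 CPM in tumor, against 106 and 136 CPM in B. *Btg2* had 309 and 596 CPM in C.

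*Egr1* was highest in the chemokine cluster F of control, at 215 CPM, and in C of tumor, at 291 CPM. *Egr2* and *Zfp36* were highest in F in both libraries, with 140.1 and 239 CPM for *Egr2* and 460.4 and 680.3 CPM for *Zfp36*. *Dusp1* and *Nr4a1* parted in cluster L. There *Nr4a1* had its lowest level, at 49.6 CPM (40.6 to 60.2) over 201 control cells and 134 CPM (107 to 165) over 72 tumor cells, where the library levels were 177 and 392 CPM. *Dusp1* had its highest level in L, at 729.9 CPM in control and 935 CPM in tumor. The widest span over clusters in control was that of *Nr4a1*, 5.13-fold, and in tumor that of *Egr1*, 4.05-fold.

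**Figure D5:**
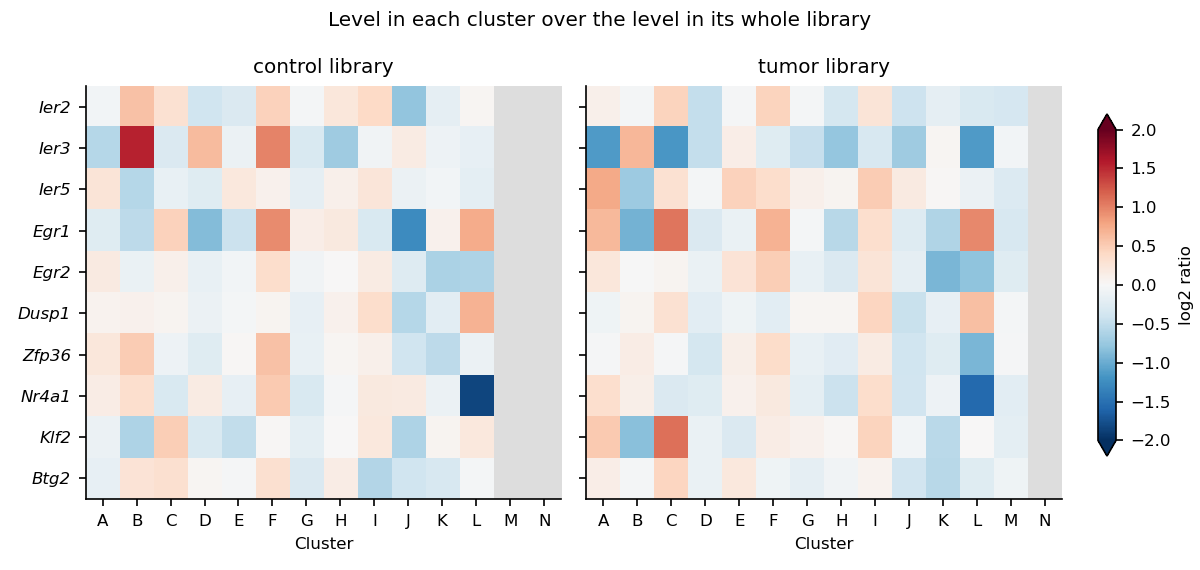
Colours give the log2 ratio of each gene's level in a cluster over its level in the whole library, on a scale from -2 to 2, for clusters A to N in the control and tumor libraries, with clusters of under 50 cells in that library in grey. *Ier3* is darkest red in cluster B of control (330.1 CPM), *Nr4a1* is darkest blue in cluster L (49.6 CPM in control) and *Klf2* is red in cluster C (517 CPM in tumor).

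Within clusters, tumor and control were compared cell state by cell state. All clusters come from the same 2 libraries, so their agreement is not separate support. No share over all genes is given for these counts of clusters. *Ier3*, *Nr4a1*, *Btg2* and *Dusp1* were higher in tumor in 12 of the 12 clusters, each time with an interval above 0. *Egr2* and *Ier2* were also higher in 12, with 11 and 10 intervals above 0, and *Zfp36* and *Klf2* in 11. *Egr1* was higher in 9, with log2 ratios from -0.44 in H to 1.30 in J, of which 7 intervals lay above 0 and 2 below. *Ier5* was higher in 2 clusters, A and C, both with an interval above 0, and in 4 its interval lay below 0. When all clusters were given the same share in both libraries, 8 of the 10 genes were at least 1.5-fold higher in tumor, where 3.34% of all 7642 genes were, but 3 were under 2 other settings of the clustering. Of the 8, *Egr1* lay almost exactly at the threshold, at 106.7 CPM in control and 160.0 CPM in tumor. At equal shares *Ier3* had a log2 ratio of 0.95 in place of 1.68, and *Ier5* had -0.08 in place of -0.35.

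Correlation over cells thinned to equal depth described which genes varied together, over 5590 control and 6937 tumor cells that share their library and for which no test was made. Over the 45 pairs of the 10 genes, the median Pearson's r was 0.08 in control and 0.11 in tumor. The highest pair was *Egr1* with *Klf2*, at 0.27 and 0.38. *Ier3* with *Ier5* was the lowest in tumor, at -0.10.

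Among 2805 genes of at least 50 CPM in both libraries, the 5 most like *Klf2* were *Hspa1a*, *Jun*, *Hspa1b*, *Rhob* and *Egr1*, with r for *Hspa1a* of 0.34 in control and 0.44 in tumor. Those most like *Egr1* were *Jun*, at 0.36 and 0.45, then *Hspa1a*, *Hspa1b*, *Klf2* and *Ier2*. *Btg2* was closest to *Fos*, *Jun*, *Hspa1a*, *Hspa1b* and *Rhob*, and *Ier2* to *Egr1*, *Jun*, *Hspa1a*, *Hspa1b* and *Fos*. The nearest gene to *Dusp1* was *Fos*, at 0.35 in both libraries, before *Zfp36*, *Btg2*, *Jun* and *Sgk1*, and *Zfp36* was nearest to *Fos*, *Dusp1*, *Junb*, *Sgk1* and *Btg2*. *Ier3* had other neighbours, *Junb*, *Cxcl2*, *Il1b*, *Osm* and *Crip1*, with r for *Il1b* of 0.14 and 0.23, and *Nr4a1* had *Junb*, *Nr4a3*, *Osm*, *Cebpb* and *Cdkn1a*. For *Egr2* (*Nr4a1*, *Egr1*, *Ccl3*, *Cebpb*, *Rhob*) and *Ier5* (*Hmox1*, *Atf3*, *Klf6*, *Atf4*, *Tob1*) the values were weak, at most 0.131, and are given only to complete the list. Those of *Ier3* and *Nr4a1* were low too, at 0.134 to 0.160 and 0.141 to 0.194 in control. In tumor they were 0.131 to 0.265 and 0.157 to 0.258.

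In the GENCODE annotation of GRCm38, *Ier2* lies on chromosome 8 at 84661331 to 84662852 (minus strand) and *Klf2* on the same chromosome at 72319033 to 72321656 (plus). *Ier5* and *Btg2* are on chromosome 1, at 155096361 to 155099636 and 134075170 to 134079120 (both minus). *Ier3* is on chromosome 17 at 35821684 to 35822923 (plus). The *Dusp1* model on that chromosome runs from 26505590 to 26562128 (minus) and overlaps *Ergic1* among other models. The *Dusp1* count may be uncertain by any reads these models share, which were not counted. *Egr2* is on chromosome 10 at 67535475 to 67542188 (plus), *Zfp36* on chromosome 7 at 28376784 to 28380253 (minus, overlapping *Gm44710*), *Nr4a1* on chromosome 15 at 101254269 to 101274795 (plus) and *Egr1* on chromosome 18. Each level counts UMIs over the whole gene, and with a 3′ kit these come mostly from near its 3′ end.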

How the data were processed

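AMs sorted from control and tumor-bearing lungs were measured as single cells, with 1 library per condition. The deposited tables hold UMI counts for each gene in each barcode, not normalized, which the authors made with bcl2fastq 2.20 and Cell Ranger 4.0.0 on mm10, per the submitters' processing notes (the methods of the paper name another Cell Ranger version), and the tables hold the called barcodes before any quality filter. Of 32285 gene identifiers, 32158 were matched to a symbol. Hashtag reads, by which the methods assign barcodes to samples, were not used here. The condition of a table is that of its label.

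From the counts, barcodes with at least 500 genes and at most 10% mitochondrial UMIs were kept, and a level is the summed UMIs of a gene as CPM of all UMIs in the cells concerned. Ratios carry exact binomial intervals and levels exact Poisson intervals, both at 95%. Cells are not replicates, so there is no fitted model and no p-value. A gene list's score was its share of a cell's UMIs. For the deciles, cells were ranked within 20 depth strata per library, whereas bins of equal score used common limits without depth strata. Clustering used 2000 variable genes, 100 components, a mutual nearest neighbour correction between libraries, a Jaccard graph of 15 neighbours and Leiden at a resolution of 1 (leidenalg 0.10.2, igraph 0.11.9, scikit-learn 1.9.0, numpy 2.4.6). Features also excluded genes of ribosomal proteins and of antigen receptor segments. Clusters were rebuilt and need not match those of the paper. Scrublet (scanpy 1.11.5) called 0 doublets in each library by its automatic threshold. That result does not show that doublets were absent, and any doublets were kept. Leaving out the scores above the upper 6% limit of each library (with ties, 274 control cells, 4.43%, and 410 tumor cells, 5.35%) was an alternative. The steps were tested on simulated data.

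The 10 genes, the gene lists and the rule for named genes were chosen with earlier results of these data known. Named were the 10 genes, the 5 genes most correlated with each, the 3 largest and 3 smallest ratios among the other immediate early genes of at least 10 CPM, and the 5 leading genes of each cluster. *Jun*, *Rhob*, *Junb*, *Fosb*, *Hspa1a* and *Hspa1b* were given values after these had been seen. The limits that define low-depth clusters (median UMIs under 0.5 of that of all cells) and clusters of other cell types (at least 3 markers of other types among 10 leading genes and none of AMs) were set after seeing the data.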

Additional observations from a re-analysis of the deposited data

Results flagged for a closer look

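*Ier3* was marked because its ratio between cells high and low in heat shock genes pointed in opposite directions in the 2 libraries, with log2 values of 0.18 in control and -0.39 in tumor. The difference between the libraries was not tested, and with the top 20% of cells the control value was -0.01. Within the 10 tumor clusters of at least 200 cells, the value was 0.85 in C, 0.79 in E, 0.73 in A, 0.53 in J and 0.06 in I, and it was -0.13 in D, -0.16 in M, -0.20 in B, -0.34 in F and -0.71 in G. Control clusters of that size had values above and below 0, but each interval of a control value below 0 also reached above 0. Their values were 0.87 in C, 0.65 in E, 0.65 in G, 0.57 in K, 0.36 in J, 0.20 in A and 0.07 in D. They were -0.15 (-0.92 to 0.54) in L, -0.24 (-0.99 to 0.43) in H and -0.26 (-0.70 to 0.16) in F. Over the 20 pairs of cluster and library, the interval lay above 0 in 8 and below 0 in 3, which were B, F and G of tumor.

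Barcodes that failed the filters entered only the alternatives with looser limits. Taken alone, 6 of the 10 genes were at least 1.5-fold higher in tumor there, where 13.2% of 7633 genes were, against 5.57% in the kept cells. In these 2300 control and 1509 tumor barcodes, tumor was above control, on the log2 scale, by 0.90 for *Ier2*, 1.99 for *Ier3*, 1.12 for *Egr2*, 1.10 for *Zfp36*, 1.35 for *Nr4a1* and 0.92 for *Btg2*. It was 0.19 for *Egr1*, 0.14 for *Dusp1* and 0.09 for *Klf2*, and 0.23 for *Ier5*, which was lower in tumor among the kept cells, at -0.35.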

How the results depend on the processing

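The number of genes at least 1.5-fold higher in tumor was 6 and became 2 at a fold of 2 and, as an alternative chosen after seeing the data, 3 at equal NF-κB score. It lay between 5 and 7 under the other alternatives, and 0 genes were lower by that size under any of them. The number higher with heat shock genes was 6 and became 3 when constitutive chaperones replaced the heat-inducible ones. *Ier2*, *Dusp1* and *Egr2* then dropped out, and *Dusp1* and *Egr2* did so with the top 20% of cells (0.47 for *Dusp1* in control, 0.54 and 0.39 for *Egr2*), without *Hspa1a* and *Hspa1b*, and without the chaperone-rich cluster, each of which gave 4. It lay between 4 and 7 otherwise, the 7 with *Zfp36* (0.69 and 0.64) at the top 5% of cells, and *Klf2*, *Egr1* and *Btg2* stayed above 1.5-fold in both libraries under all 11 alternatives that gave a ratio per gene. The number higher with NF-κB response genes was 6 and became 1 at a fold of 2. It lay between 4 and 6 otherwise. With the top 20% of cells it was 4, as *Egr2* (0.54 in control) and *Nr4a1* (0.48 and 0.51) no longer met the rule, and without *Il1b* and *Cxcl2* in the list it was 6, with *Klf2* (0.83 and 0.70) in and *Nr4a1* (0.51 in tumor) out. The number of genes highest in the chaperone-rich cluster was 0 and became 2 at a resolution of 0.5, 7 at 1.5, 5 without library correction, 8 with the immediate early and chaperone genes allowed as features, and 1 without clusters of other cell types, the last chosen after seeing the data. At equal cluster shares, 8 genes became 3 without library correction and 3 with those genes allowed as features. Of 510 values of single genes under the alternatives, 499 had the sign of the value reported and 314 lay within its interval. No paired analysis was possible because each condition has 1 library, and with 1 library a difference of preparation and one of condition cannot be told apart.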
